A study of Saccharomyces cerevisiae with 71 samples.

Results

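Charging of 41 tRNAs was followed in wild-type yeast after tryptophan (Trp) was withdrawn from the medium, on 6 of the 71 arrays of the series. These are all arrays labelled as the wild-type strain shifted to medium without Trp, and they hold 2 arrays each for 0, 15 and 60 min. The strain, WY798 (MATα URA3 LEU2 TRP1), is a prototroph made from a Trp-requiring parent by restoring its marker genes, so it can synthesize Trp and every other amino acid. Cells grown in synthetic complete (SC) medium with dextrose were collected and placed in SC medium lacking Trp, while the 0 min culture is the complete-medium reference. The paper's flask protocol shifts cells in mid-log growth, but the growth phase and temperature of the array cultures are not stated. Set beside them is the isogenic gcn2Δ strain WY799 (MATα gcn2::URA3 LEU2 TRP1) under the same Trp withdrawal. Also used are cultures of both strains deprived of histidine (His), arginine (Arg) or leucine (Leu). Other cultures of both strains lacked Arg but had ornithine added, or lacked Trp, phenylalanine and tyrosine together. Each strain, medium and time was taken as 1 sample, called a culture below. The labels do not say whether the times of a strain and medium came from the same flask. Where a culture has 2 arrays, they differ in the dye used for total tRNA. Whether such arrays carry the same RNA is not stated in the sources used here. Some cultures in other media have 1 array only. No array probe measures GCN2 itself, so the genotype labels could not be checked in these data.

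A tRNA is charged when its aminoacyl-tRNA synthetase has joined the matching amino acid to its 3′ end, and only charged tRNA can deliver that amino acid to the ribosome. In yeast, uncharged tRNA is sensed by the kinase Gcn2p, which phosphorylates the translation factor eIF2. This slows general initiation and raises translation of GCN4 mRNA, whose product turns on amino acid biosynthesis genes. Trp is made together with phenylalanine (Phe) and tyrosine (Tyr) from the chorismate pathway, whose first step is inhibited by Phe and Tyr.

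On each array one dye labelled total tRNA and the other labelled the tRNA that survived periodate oxidation because its 3′ end was protected by an amino acid. The deposited value for each tRNA is the charged over total ratio of the depleted culture relative to the 0 min culture, scaled by array so that the median tRNA is close to 1. The 4 depleted arrays had median ratios of 0.999, 1.00, 1.00 and 1.00, and both 0 min arrays hold exactly 1 for every tRNA. Values below are log2 charging changes against 0 min with the array median at 0. They are therefore relative to the other tRNAs of the same array, average over all cells of a culture, and say nothing of the charged share in percent. The leucine experiment has no 0 min array, and its reference arrays are labelled with a later time. The arrays with total tRNA in Cy5 were turned, because as deposited they ran opposite to their Cy3 partners, with correlations over the 41 tRNAs of −0.55 at 15 min and −0.22 at 60 min. This direction is likely but the labels do not state it, and values with total tRNA in Cy3, which needed no turning, are given throughout. Arrays of the other experiments were left as deposited, although some of their pairs also ran opposite. Correlations of those pairs ranged from −0.48 (wild type without Leu, 120 min) to 0.96 (gcn2Δ without Arg, 60 min). For gcn2Δ without His at 15 min it was −0.28. A negative correlation alone therefore does not show that an array is inverted.

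The tRNA for Trp itself, probe Trp-3, was 1.93-fold lower in charging after 15 min and nearer to its starting level after 60 min. Its deposited ratio at 15 min was 0.507 with total tRNA in Cy3 and 1.90, the inverse direction, with total tRNA in Cy5. On the log2 scale these are −0.98 and −0.92, so that the 2 arrays of the 15 min culture lay within 0.1 of each other, and their mean was −0.95 ± 0.04 (SD, n = 2 arrays of 1 culture). At 60 min the deposited ratios were 0.911 and 1.41, or −0.13 and −0.48 on the log2 scale, with a mean of −0.31. Both arrays at 60 min thus lay below 0 and above both arrays at 15 min.

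The culture without Trp was set against 6 comparison cultures of the same time, namely His, Arg and Arg with ornithine withdrawal in both strains, all of which kept Trp in the medium. The ornithine cultures of the wild type at both times, and of gcn2Δ at 15 min, had a Cy3 array only. Because each condition is a single culture, the spread was taken from the 6 comparison cultures, and the single Trp culture was assumed to share it. The p-values thus measure only the spread between these samples. Trp-3 averaged −0.95 in the wild-type culture without Trp at 15 min, and between −0.14 and 0.38 in the comparison cultures. The difference was −1.03 with an SE of 0.19, and the adjusted p was 0.0381 (limma, Benjamini-Hochberg over 41 tRNAs). It was the only tRNA called at 15 min, which is 2.44% of the 41 tested, and also the only one with an unadjusted p below 0.05. The call was kept under 5 of 17 alternative settings and lost under the other 12, for instance with the Cy3 arrays alone (−1.06, adjusted p = 0.163), while the size stayed between −1.09 and −0.93 except where the Cy5 arrays were left as deposited (−0.10). An exact permutation test of 1 culture against 6 cannot fall below 0.143.

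At 60 min 0 tRNAs were called by limma, 0% of the 41, and 1, Trp-3, had an unadjusted p below 0.05. Trp-3 was at −0.31 in the culture without Trp and between −0.01 and 0.38 in the comparison cultures, a difference of −0.44 with an SE of 0.16 (adjusted p = 0.985, limma). The difference was −0.21 with the Cy3 arrays alone and −0.68 with the Cy5 arrays alone, turned. Averaging the Cy3 array with the Cy5 array as deposited gave 0.046, so the size of the mean difference at 60 min depends on the turning.

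Among all 26 depleted cultures of the series, the wild type without Trp had the third lowest Trp-3 value at 15 min and the fifth lowest at 60 min. Lower than both were gcn2Δ without Trp at 60 min, at −3.81 and −3.85 on its 2 arrays, and at 15 min, at −0.94 and −1.10. Between the wild-type values at 15 and 60 min stood gcn2Δ without Trp, Phe and Tyr at 60 min, at −0.33 and −0.58. When Phe and Tyr were removed along with Trp, the wild type had Trp-3 values of −0.23 at 15 min and 0.00 at 60 min (1 array each). The 18 cultures that kept Trp include repeated times of each strain and medium, and leucine cultures without a 0 min reference. The 18 are not known to be independent. They lay between −0.14 and 0.38 with a median of 0.06, and both wild-type means without Trp fell below that range. At 60 min this holds only for the mean that includes the turned array, since the Cy3 value of −0.13 lay above that of 2 cultures that kept Trp, at −0.27 and −0.19 in Cy3.

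**Figure D1:**
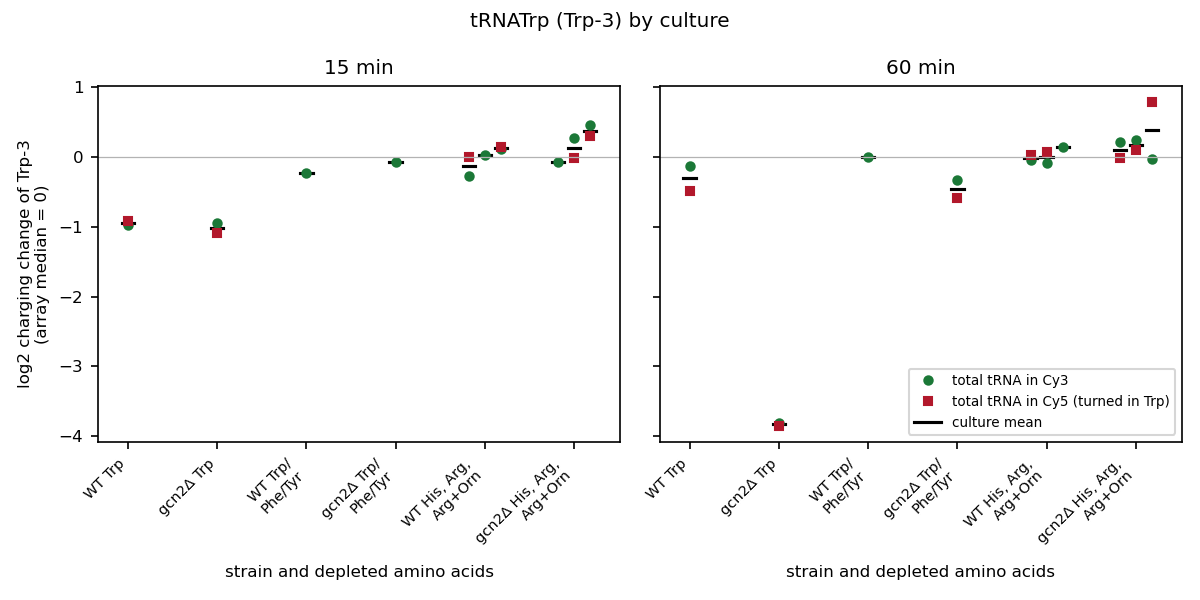
Log2 charging change of Trp-3 against 0 min (vertical axis, array median at 0) at 15 min (left) and 60 min (right), by strain and withdrawn amino acids. Green circles are arrays with total tRNA in Cy3, red squares arrays with total tRNA in Cy5 (turned in the Trp experiment), and black bars are culture means: wild type without Trp stands at −0.95 and −0.31, gcn2Δ without Trp at −1.02 and −3.83.

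At 15 min the other tRNAs spread widely on one array of the culture and little on its partner. With total tRNA in Cy3 the SD over the 41 tRNAs was 0.45, and with total tRNA in Cy5 it was 0.20. Leaving out Trp-3 gave 0.44 and 0.13. On the Cy3 array 9 tRNAs lay below −0.5 and 0 lay above 0.5, whereas on the Cy5 array only Trp-3 lay below −0.5. Trp-3 was thus the one tRNA of the 41 below −0.5 in both dye orientations. The correlation of the arrays over tRNAs, which share probes, was 0.55 after turning and 0.43 without Trp-3 and Met-6. Both values are positive because of the turning.

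**Figure D2:**
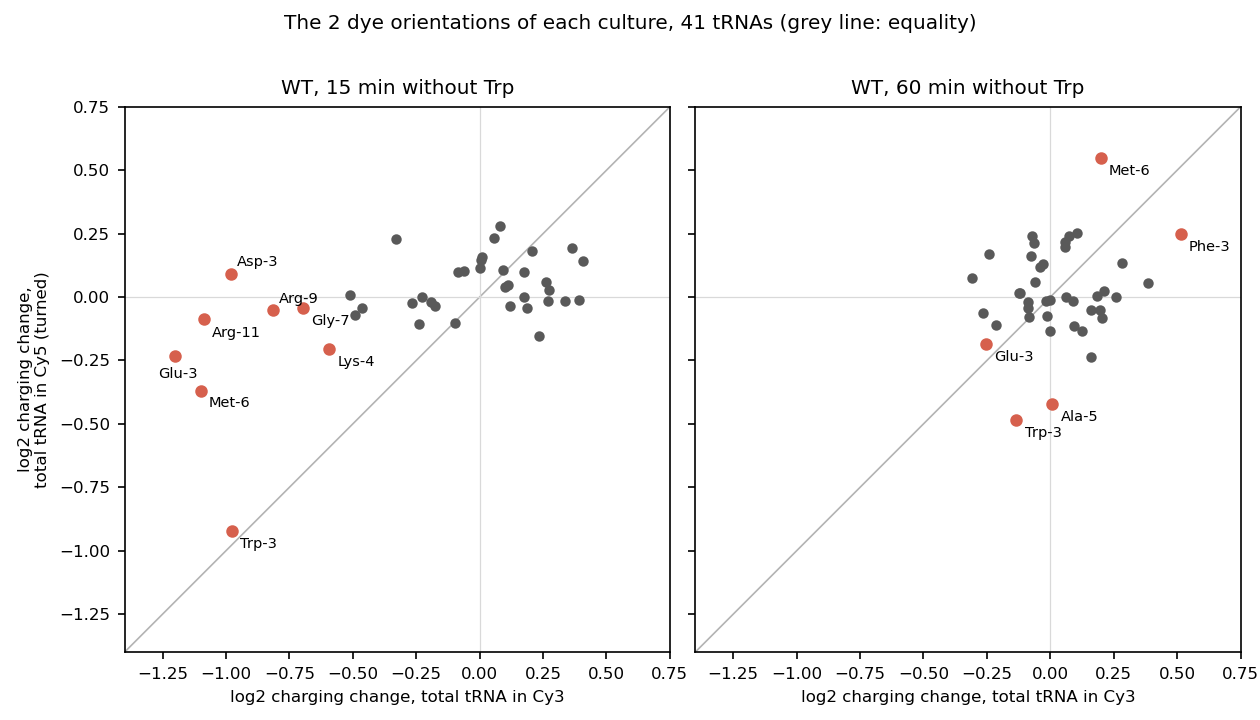
Log2 charging change with total tRNA in Cy3 (horizontal axis) against that with total tRNA in Cy5, turned (vertical axis), for 41 tRNAs at 15 min (left) and 60 min (right) in the wild type without Trp. At 15 min Trp-3 lies close to the line of equality at −0.98 and −0.92, while Glu-3, Met-6, Arg-11 and Asp-3 lie between −1.20 and −0.98 on the Cy3 axis and between −0.37 and 0.09 on the Cy5 axis.

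Among tRNAs below 0 on both arrays, those with the lowest mean after Trp-3 were Met-6, Glu-3, Arg-11 and Arg-9. Asp-3, for aspartate, had a mean of −0.45, between those of Arg-11 and Arg-9, but was at −0.98 in Cy3 and 0.09 in Cy5. Methionine tRNAs either start every protein or serve elongation, and the names of the probes Met-6 and Met-5 do not say which is which. The paper reports selectively lowered charging of the initiator methionine tRNA in gcn2Δ when Trp was removed. In gcn2Δ without Trp at 60 min, Met-6 was at −1.68 and Met-5 at 0.09. Met-6 is therefore likely the initiator probe, but this was not checked against probe sequences. In the wild type without Trp at 15 min, Met-6 was at −1.10 in Cy3 and −0.37 in Cy5, a mean of −0.73. Met-5 was at 0.19 and −0.04. Met-6 in the comparison cultures lay between −0.13 and 1.48, above the culture without Trp, but they varied so much that the difference of −1.05 had an SE of 0.56 (adjusted p = 0.803, limma). Glu-3, for glutamate, was at −1.20 and −0.23, a mean of −0.72, inside the comparison range of −1.20 to 0.47. The lower end of that range was gcn2Δ without Arg, where the paper reports lowered charging of this tRNA. The next lowest comparison culture, wild type without Arg, was at −0.53, above the culture without Trp. Arg-11 was at −1.09 and −0.08, and Arg-9 at −0.82 and −0.05. For these arginine probes the comparison range, −1.31 to 0.26 for Arg-9, includes cultures deprived of arginine itself.

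At the other end, Phe-3, the tRNA of an amino acid made in the same pathway as Trp, was at 0.41 in Cy3 and 0.14 in Cy5 at 15 min, and at 0.51 and 0.25 at 60 min. It was the only tRNA above 0.5 on the 60 min Cy3 array. Tyr-3, the tRNA of the other aromatic amino acid, was at −0.46 and −0.04 at 15 min and at −0.24 and 0.17 at 60 min. The 3 aromatic tRNAs therefore did not share a direction, with means at 15 min of −0.95 for Trp-3, −0.25 for Tyr-3 and 0.28 for Phe-3. Phe-3 lay within the range of the comparison cultures at both times.

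Among amino acids with at least 3 tRNAs, valine was the only one with every tRNA above 0 in both orientations at 15 min. Val-8 was at 0.37 and 0.19, Val-6 at 0.21 and 0.18, and Val-7 at 0.08 and 0.28, with Thr-8 after them at 0.26 and 0.06. At 60 min the means of the valine tRNAs were 0.21, −0.08 and 0.10 for Val-8, Val-6 and Val-7. None of them was called.

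**Figure D3:**
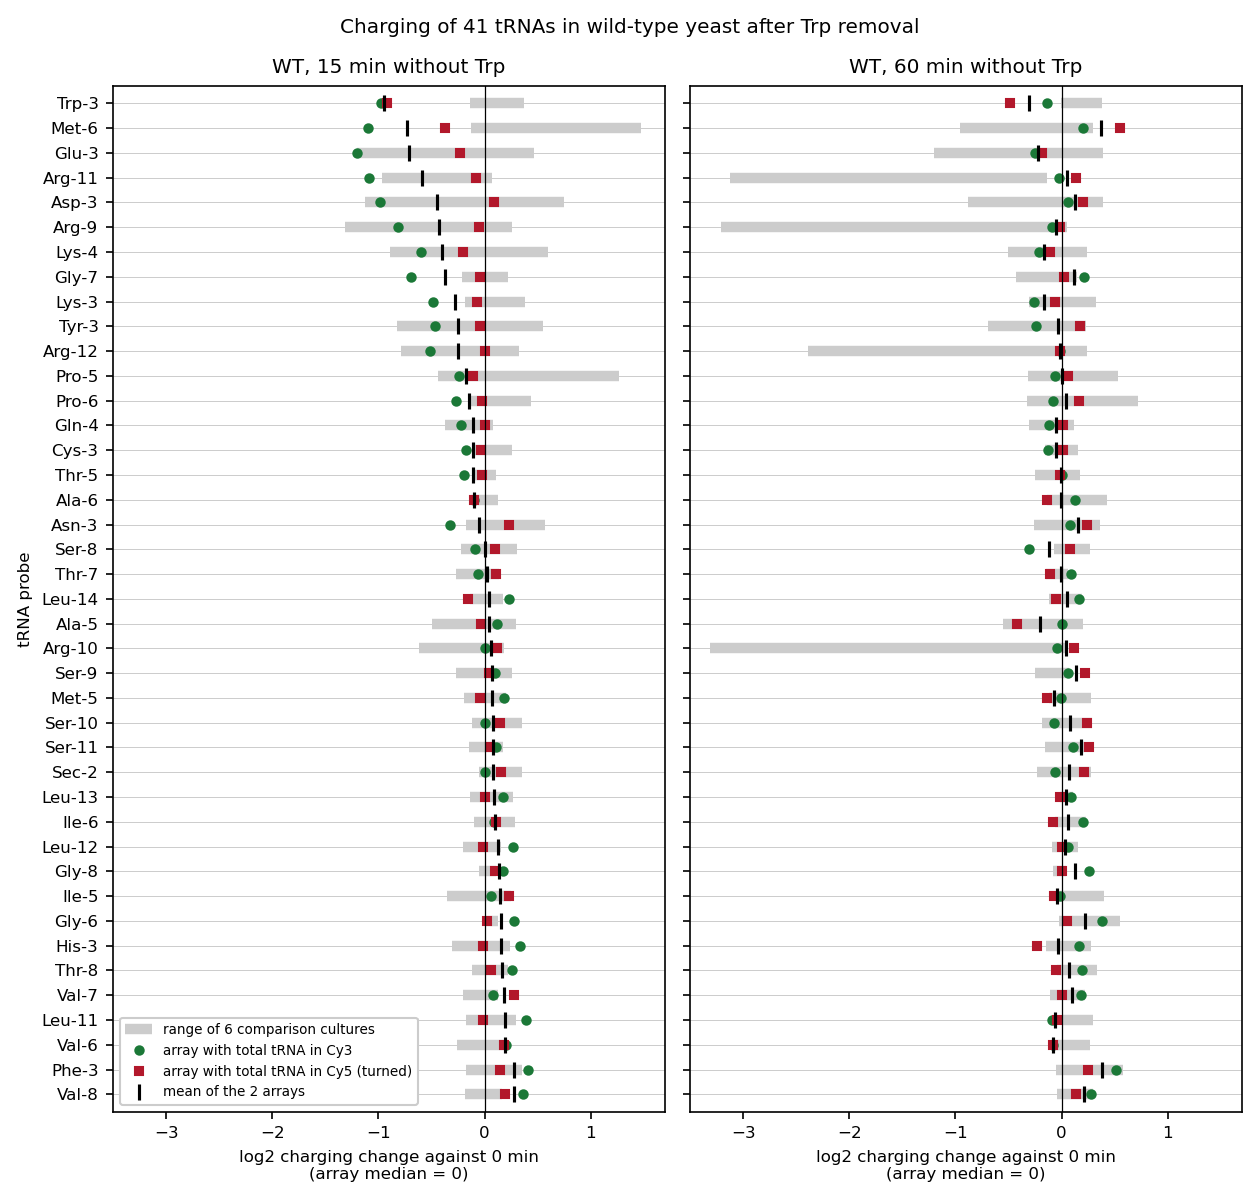
Log2 charging change against 0 min (horizontal axis, array median at 0) of each of the 41 tRNAs (rows, lowest 15 min mean at the top) in the wild type without Trp at 15 min (left) and 60 min (right). Green circles and red squares are the 2 dye orientations, black ticks their mean and grey bars the range of the 6 comparison cultures: Trp-3 is left of its grey bar on both arrays at both times.

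Sorted by the chemistry of the amino acid, the 8 tRNAs for charged residues (Arg, Asp, Glu and Lys) had a median mean change of −0.42 at 15 min, against 0.04 over all 41. Of these, 5 were below 0 on both arrays and 0 above 0 on both, compared with 14 and 14 over all 41. The median of the charged group was −0.70 in Cy3 and −0.06 in Cy5, so that its position is that of the Cy3 array. It was −0.04 at 60 min. The 13 hydrophobic tRNAs had a median of 0.13 at 15 min, with 7 above 0 on both arrays and 2, Trp-3 and Met-6, below. The 8 tRNAs for small residues (Ala, Cys, Gly and Pro) were at −0.10 and the 11 polar ones at 0.02. The medians for tRNAs of class I and class II synthetases, the enzyme families with unrelated catalytic folds, were 0.05 and 0.01 over 20 tRNAs each.

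Isoacceptors of one amino acid did not always lie together. Of the 4 arginine tRNAs, Arg-11, Arg-9 and Arg-12 had means of −0.59, −0.43 and −0.25 at 15 min, and Arg-10 was at 0.06. The 3 glycine tRNAs included Gly-7 at −0.70 and −0.04 on its arrays, and Gly-6 and Gly-8 with means of 0.15 and 0.14. Both lysine tRNAs were below 0 on both arrays, Lys-4 at −0.59 and −0.21 and Lys-3 at −0.49 and −0.07.

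At 60 min the SD over tRNAs was 0.18 in Cy3 and 0.19 in Cy5. With Trp-3 left out, the Cy3 arrays had SDs of 0.44 at 15 min and 0.18 at 60 min, and the Cy5 arrays 0.13 at 15 min and 0.17 at 60 min, so the profile was narrower at 60 min on the Cy3 arrays only. The mean change was under 0.25 in size for 38 of the 41 tRNAs, compared with 28 at 15 min. The exceptions were Phe-3 at 0.38, Met-6 at 0.37 and Trp-3 at −0.31. Below 0 on both arrays after Trp-3 came Glu-3 at −0.22, Lys-3 and Lys-4 at −0.16 each, and Val-6 at −0.08. After Phe-3 and Met-6, the highest tRNAs above 0 on both arrays were Gly-6 at 0.22, Val-8 at 0.21 and Ser-11 at 0.18. Agreement between the arrays was weak at this time, with a correlation over tRNAs of 0.22, and 20 tRNAs had the same sign on both, compared with 28 at 15 min.

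The difference between 60 and 15 min does not depend on the 0 min reference, which both times share. Met-6 had the largest one, 1.30 in Cy3 and 0.92 in Cy5, or 2.16-fold on average. Trp-3 followed with 0.84 and 0.44, a 1.56-fold higher charging ratio at 60 than at 15 min. Next came Arg-11 with 1.06 and 0.22, Asp-3 with 1.04 and 0.11, and Glu-3 with 0.95 and 0.04. Of these tRNAs, Met-6 alone exceeded 0.5 on both arrays.

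**Figure D4:**
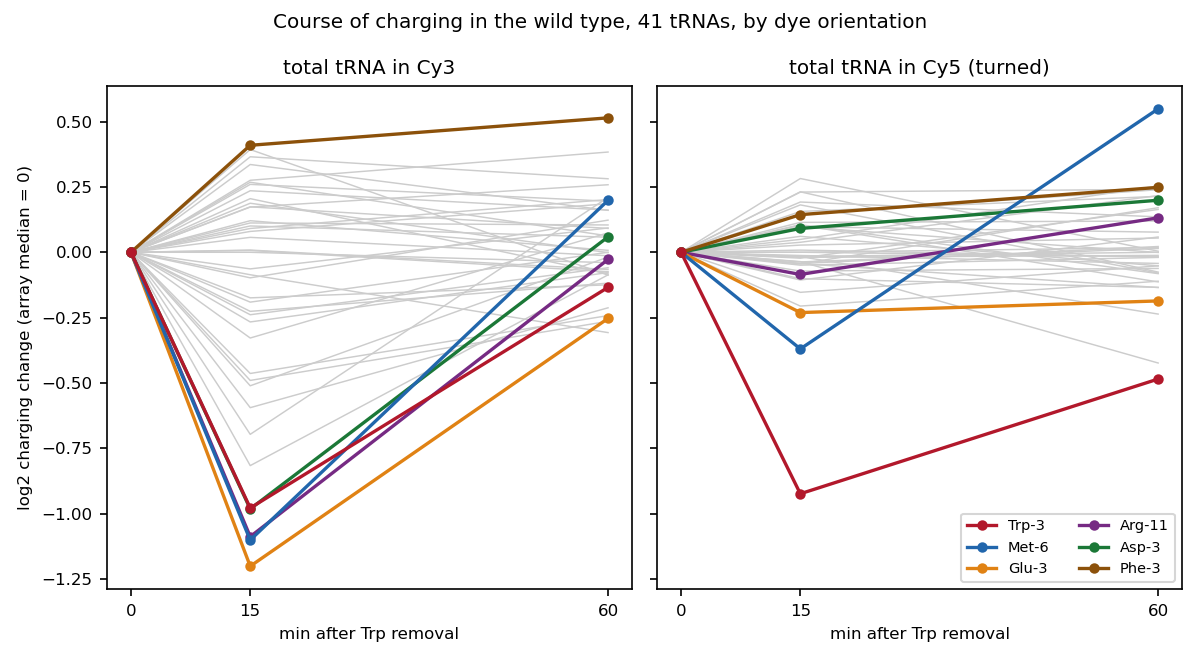
Log2 charging change (vertical axis, array median at 0) at 0, 15 and 60 min after Trp withdrawal (horizontal axis) for 41 tRNAs in the wild type, with total tRNA in Cy3 (left) and in Cy5, turned (right). Grey lines are the other tRNAs: in Cy3 several coloured tRNAs share a dip to about −1 at 15 min, whereas in Cy5 Trp-3 dips to −0.92 and the next lowest, Met-6, to −0.37.

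In the same test against the 6 other strain and medium series, 0 tRNAs were called for the change from 15 to 60 min by limma, 0% of the 41. At an unadjusted p below 0.05 there were 3, all with a larger increase than the comparison series, namely Gly-7, Met-6 and Trp-3. Gly-7 had the smallest adjusted p, 0.502, with a change of 0.49 against −0.46 to 0.02 in the comparison series, and with the Cy3 arrays alone it was called (adjusted p = 0.0104). Met-6 had a mean difference of 1.11 in the series without Trp and of −1.31 to 0.29 in the comparison series. Trp-3 had 0.64 and the comparison series −0.21 to 0.46, which gives a difference of 0.59 with an SE of 0.24 (adjusted p = 0.635, limma). That difference was 0.86 with the Cy3 arrays alone (adjusted p = 0.0532), 0.39 with arrays centred on their mean and 0.15 with the Cy5 arrays as deposited. Over all tRNAs, 13 were above and 3 below the whole range of the comparison series. Were the series without Trp like the 6 others, each tRNA would lie above that range with probability 0.143, and likewise below. The comparison range of Arg-11, −2.16 to −0.01, includes series deprived of arginine itself. The 13 therefore do not measure recovery without Trp alone. Among the 41, 18 were higher and 10 were lower at 60 than at 15 min on both arrays. The lowest values among these 10 were −0.27 for Val-6, −0.26 for Leu-11, −0.25 for Ala-5, −0.20 for His-3 and −0.19 for Ile-5.

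The dip at 15 min was followed from one array to the other with the 10 tRNAs lowest on the Cy3 array, a set chosen after its values were seen: Glu-3, Met-6, Arg-11, Asp-3, Trp-3, Arg-9, Gly-7, Lys-4, Arg-12 and Lys-3. Their median was −0.90 in Cy3, which chose them, and −0.08 in Cy5, where 8 of 10 were below 0 and where 12 of the other 31 were. Their median difference between 60 and 15 min was 0.08 in Cy5. In Cy3 it was 0.87, a positive value that the choice of the lowest tRNAs on the 15 min array favours. On the Cy5 array 9 of these 10 had a positive difference, as did 16 of the other 31. These Cy5 signs depend on the turning, which was made because the Cy5 arrays ran opposite to the Cy3 arrays. The Cy5 counts are therefore no independent support for the Cy3 dip. Of the 10, the 6 that are not for Trp or Arg had a median of −0.84 on the 15 min Cy3 array that chose them. On the corresponding gcn2Δ arrays without Trp it was −0.41 in Cy3 and 0.08 in Cy5. A value near that of the wild type was also seen without Trp withdrawal, −0.83 on the Cy5 array of gcn2Δ without Arg and with ornithine at 60 min. The Cy3 partner of that array was at 0.15. In gcn2Δ without Arg at 15 min the 2 arrays were at −0.58 and −0.50. The 15 min Cy3 array of the wild type without Trp had the sixth highest SD over tRNAs not for the withdrawn amino acid, 0.441, in a range of 0.0721 to 0.703 over the 46 arrays. Its part in the dip was not tested.

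The strains were compared through the wild type minus gcn2Δ difference in the Trp experiment, set against that difference under withdrawal of His, of Arg, and of Arg in the presence of ornithine. At 15 min 0 tRNAs were called by limma, 0% of the 41, and 0 had an unadjusted p below 0.05. Trp-3 was at −0.95 in the wild type and −1.02 in gcn2Δ, and the difference minus that of the other experiments was 0.21 with an SE of 0.35 (adjusted p = 0.957), too imprecise to show that the strains charge alike.

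At 60 min Trp-3 was at −0.31 in the wild type and −3.83 in gcn2Δ. The difference of 3.52 exceeded the mean of the other experiments, −0.17, by 3.69 with an SE of 0.13 (adjusted p = 0.00179, limma). Trp-3 was the only tRNA called, 2.44% of the 41, while 4 had an unadjusted p below 0.05. Met-6 was at 0.37 in the wild type and −1.68 in gcn2Δ, with an adjusted p of 0.282 for the strain difference. Phe-3 was at 0.38 in the wild type and −0.01 in gcn2Δ (adjusted p = 0.282), and Pro-5 at −0.00 in the wild type and −1.78 in gcn2Δ (adjusted p = 0.455). With 1 experiment against 3, an exact permutation test cannot fall below 0.25. For the change from 15 to 60 min, Trp-3 had 0.64 in the wild type and −2.81 in gcn2Δ, and the strain difference exceeded that of the other experiments by 3.48 with an SE of 0.31 (adjusted p = 0.0108, limma). It was again the 1 tRNA called, 2.44% of the 41. This last call was lost with trended moderation, with the Cy5 arrays alone and without the His experiment (adjusted p = 0.314, 0.0901 and 0.242). Both calls were lost with the Cy5 arrays left as deposited, where the Trp-3 differences were 0.33 and 0.30.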

How the data were processed

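The authors deposited linear ratios of charged to total tRNA, set against the 0 min array and scaled by array to a median of about 1. Microarray probes cover 41 tRNAs, and 0 values were missing. The 41 include a probe named Sec-2, and the sources used here do not state what it measures in yeast. Sec-2 was not placed in any group by chemistry or synthetase class. After deacylation, tRNA was labelled by ligation of Cy3 or Cy5 oligonucleotides. Scanner, background correction and signal over background are not given in the sources used here. The number of arrays limits the precision. Ratios were put on the log2 scale without a pseudocount and centred on the median of the array, Trp arrays with total tRNA in Cy5 were turned, and the arrays of each culture were averaged. Cultures were compared by a linear model with moderated variance (limma 3.58.1, R 4.3.3), with Benjamini-Hochberg adjustment over 41 tRNAs and calls below 0.05, and the procedure was tested on simulated data.

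Named were Trp-3, the Phe, Tyr and Met probes, all tRNAs called, and the 5 lowest and 5 highest at 15 min, at 60 min and for their difference among those with the same sign on both arrays. Other names were chosen after their values were seen. The members and lists were chosen with earlier results of these data known. Arrays of leucine withdrawal, whose times differ, entered no test.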

Additional observations from a re-analysis of the deposited data

Results flagged for a closer look

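The strain difference in charging of tRNATrp (Trp-3) stood out at 60 min, where wild type minus gcn2Δ in the Trp experiment exceeded that in the 3 other experiments by 3.69 on the log2 scale (SE 0.13, adjusted p = 0.00179, limma). The same held for the change from 15 to 60 min, with an excess of 3.48 (SE 0.31, adjusted p = 0.0108, limma). Trp-3 was lower at 60 than at 15 min on both gcn2Δ arrays, and higher at 60 than at 15 min on both wild-type arrays. No condition held more than 1 culture, so that no group was large enough to look for a culture standing apart from its replicates.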

How the results depend on the processing

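At 15 min the Trp-3 difference from the comparison cultures kept its direction under all 17 alternatives, and its call under 5 of them. The count of called tRNAs was 0 under the other 12, with differences and adjusted p of −0.93 (0.253) with arrays centred on their mean, −1.06 (0.163) with Cy3 arrays only, −1.03 (0.0670) with Cy5 arrays only, −1.03 (0.0928) with trended moderation, −0.96 (0.0783) against wild-type cultures only, −1.09 (0.178) against gcn2Δ cultures only, −1.07 (0.173) without the ornithine experiment, and −0.10 (0.958) with the Trp Cy5 arrays as deposited. Leaving out each comparison culture gave −1.07 to −0.96, counts of 0 to 1 and adjusted p of 0.0108 to 0.114, and the call was lost without gcn2Δ His (0.114), wild-type Arg (0.110), wild-type Arg with ornithine (0.104) or gcn2Δ Arg with ornithine (0.0603). At 60 min the Trp-3 difference was −0.21 with Cy3 arrays only, −0.68 with Cy5 arrays only and 0.046 as deposited, the reverse direction, and 0 tRNAs were called under all 17 alternatives. For the change from 15 to 60 min the count was 1 (Gly-7) with Cy3 arrays only.

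For the strain difference at 60 min, 2 tRNAs (Trp-3 and Met-6) were called with arrays centred on their mean, and 0 as deposited (Trp-3 difference 0.33, adjusted p = 0.732). Leaving out an experiment gave counts of 1 to 3 and Trp-3 differences of 3.66 to 3.72. Without the Arg experiment the 3 were Trp-3, Met-6 and Pro-5. For the strain difference in the change from 15 to 60 min, the count was 2 (Trp-3 and Gly-7) with Cy3 arrays only, and 0 with Cy5 arrays only (3.10), as deposited (0.30) and with trended moderation (3.48). Leaving out an experiment gave counts of 0 to 1 and Trp-3 differences of 3.33 to 3.58, the call being lost without the His experiment (3.58, adjusted p = 0.242).

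The SD over tRNAs at 60 min was 0.14 for the mean of the arrays, 0.177 in Cy3, 0.185 in Cy5, 0.114 as deposited and 0.133 without Trp-3. At 15 min it was 0.29, and 0.192 to 0.455 under its 4 alternatives. In the 3 wild-type comparisons, among 1020 values under alternatives of the 20 tRNAs besides Trp-3 that the rule names, 805 moved by less than the SD between the arrays, 215 moved by more, and 0 had an adjusted p below 0.05. Cultures deprived of arginine or histidine were left out for the matching tRNAs as an alternative chosen after seeing the data. A planned correlation between the 15 and 60 min changes was not run because both share the reference array. A replicate block could not be fitted because the labels number no replicates, and the strain comparison was made within experiments. The cause of these changes was not tested.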
